A study of Mus musculus with 9 samples.

Results

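The 10 elastic fiber and microfibril genes Eln, Fbn1, Fbn2, Ltbp2, Mfap2, Mfap5, Mfap4, Fbln1, Fbln2 and Fbln5 were followed in 9 RNA sequencing libraries of mouse hepatic stellate cells and liver fibroblasts. They were chosen by their symbol among the 24453 genes of the deposited table, and all 10 were found. Elastic fibers give tissues stretch and recoil. They are built from tropoelastin, the product of Eln, which is deposited and cross-linked on a scaffold of fibrillin microfibrils. Microfibril-associated glycoproteins, latent TGFβ binding proteins and fibulins decorate the scaffold, guide tropoelastin onto it and hold growth factors in the matrix. In the liver, elastin is known to accumulate in scars late in fibrosis, and portal fibroblasts and vessel walls are known sources of it.

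The study sequenced 3 groups of C57BL/6J cells with 3 libraries a group, each a pool of 3 to 5 mice. HSCs were hepatic stellate cells of untreated wild-type livers, separated by density gradient and not by a reporter. CCl4-fib were CD45- GFP+ cells sorted from Col1a2-GFP Tg mice that had received carbon tetrachloride 2 times a week for 8 weeks. NASH-fib came from the same sort of male MC/COL mice, in which the Col1a2-GFP transgene was combined with loss of the melanocortin 4 receptor (MC4R-KO), after 20 weeks of Western diet (WD) from an age of 8 weeks. The age of the other mice is not given in the sources used here. GFP was driven by the Col1a2 promoter, so the sort kept collagen-expressing cells in both fibroblast groups and no such choice was made for HSCs. Isolation method and disease cannot be told apart in a comparison with HSCs, and genotype, diet and feeding time cannot be told apart in NASH-fib. The labels do not say that the pools share no animals, so p-values measure the spread between these libraries, which may be technical.

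Depth ran from 3071070 to 3825522 reads on genes in HSCs, from 4687349 to 5634273 in CCl4-fib and from 3289758 to 5021156 in NASH-fib. The values given below are reads on the exons of a gene multiplied by 1 factor per library, and 3 reads, taken as the detection floor, corresponded to a value of 2.38 to 4.37. Quiescent stellate cell markers summed to 60926 to 68209 in HSCs and to 7979 to 32231 in the fibroblast groups, and activated fibroblast markers to 6764 to 12067 in HSCs and 29058 to 57347 in the fibroblast groups. Rgs5, the most abundant quiescent marker in each group, overlapped between HSCs (14708 to 27511) and NASH-fib (15987 to 29830), with 2296 to 13715 in CCl4-fib. Of the 10 quiescent markers, 8 were called lower in both fibroblast groups, so the sums do not stand for each gene. HSC replicate 2 and NASH-fib replicate 1 deviated together from their groups (Pearson r = 0.65 across genes) and shared the number pair that opens their labels with CCl4-fib replicate 1. CCl4-fib replicate 1 did not deviate with them (r = -0.07 with HSC replicate 2 and -0.13 with NASH-fib replicate 1). Both HSC replicate 2 and NASH-fib replicate 1 read lower at GC-rich genes, with r = -0.31 and -0.51 between deviation and GC content across 13566 genes. No HSC or CCl4-fib library had a read on Mc4r, the gene lost in MC4R-KO mice, and the NASH-fib libraries had 4, 13 and 0, so its level was no check of the genotype.

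The stretches of promoter that lie in front of 4 of the genes are shown because these genes take different courses in the results: Ltbp2 and Fbln2 were lower in NASH-fib than in CCl4-fib, Fbln1 overlapped between them, and Fbln5 was not called in any comparison. Each is the 250 bases before the start in RefSeq, 5′ to 3′ on the strand of the gene, GRCm38.p6 (mm10). Capitals mark a GC box, GGGCGG on either strand. The windows are chr12:84876492-84876741 (-) for Ltbp2, chr6:91212514-91212763 (+) for Fbln2, chr15:85205758-85206007 (+) for Fbln1 and chr12:101819120-101819369 (-) for Fbln5.
Ltbp2: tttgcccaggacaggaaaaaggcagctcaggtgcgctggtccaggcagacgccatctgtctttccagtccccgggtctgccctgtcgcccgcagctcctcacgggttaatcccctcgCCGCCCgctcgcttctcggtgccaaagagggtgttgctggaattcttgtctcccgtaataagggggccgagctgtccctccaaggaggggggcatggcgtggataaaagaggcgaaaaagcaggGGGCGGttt
Fbln2: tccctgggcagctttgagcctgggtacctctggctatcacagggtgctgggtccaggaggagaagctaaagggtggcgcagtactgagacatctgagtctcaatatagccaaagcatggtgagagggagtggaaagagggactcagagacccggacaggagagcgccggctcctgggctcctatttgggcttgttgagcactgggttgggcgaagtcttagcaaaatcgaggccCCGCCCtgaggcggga
Fbln1: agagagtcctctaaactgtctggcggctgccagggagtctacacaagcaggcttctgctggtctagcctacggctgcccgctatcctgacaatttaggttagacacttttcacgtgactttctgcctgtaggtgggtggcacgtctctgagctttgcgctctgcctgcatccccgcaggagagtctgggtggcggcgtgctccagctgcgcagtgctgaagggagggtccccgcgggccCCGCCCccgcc
Fbln5: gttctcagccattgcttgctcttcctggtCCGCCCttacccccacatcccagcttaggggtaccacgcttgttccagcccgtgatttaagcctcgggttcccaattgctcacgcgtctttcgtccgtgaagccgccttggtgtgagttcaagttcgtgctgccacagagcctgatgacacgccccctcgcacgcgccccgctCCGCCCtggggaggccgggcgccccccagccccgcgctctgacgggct

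A promoter was found for 6 of the 10 genes, namely these 4, Fbn1 and Mfap2. All 6 windows held at least 1 GC box, with 2 in Ltbp2, Fbln5 and Mfap2, while 32.7% of the 32851 RefSeq promoter windows of the same length hold one. The other motifs searched on both strands were the TATA box TATAAA, the AP-1 motif TGANTCA and the TEAD motif GGAATG, present in 12.4%, 6.75% and 12.6% of all windows. None of these 3 motifs was in the 6 windows. Eln, Fbn2, Mfap4 and Mfap5 had no promoter entry.

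Taken over all 10 genes, HSCs held little elastic fiber RNA and both fibroblast groups held much more. The genes took 0.0244% to 0.0400% of all reads in HSCs, 0.380% to 0.438% in CCl4-fib and 0.131% to 0.253% in NASH-fib. Divided by exonic length, so that genes can be compared with each other, their summed value per kb was 300.1, 183 and 181 in the HSC libraries, 8555, 7888 and 7385 in the CCl4-fib libraries, and 2246, 5355 and 4651 in NASH-fib. The 3 groups did not overlap in this sum. NASH-fib replicate 1 was the lowest of its group for 7 of the 10 genes, and the highest for Fbln5.

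The genes that made up this sum also differed. In HSC libraries, Fbln5, which tethers elastic fibers to cells and promotes their assembly, held 51.8% to 68.1% of the value per kb, followed by Fbn1, the main fibrillin of adult microfibrils. In CCl4-fib the leading genes per kb were Mfap4 (2624 ± 68.6, mean ± SD, n = 3), Mfap5 (2125 ± 289) and Mfap2 (1318 ± 362), and Fbln5 held 1.17% to 1.33%. In NASH-fib Mfap5 (1841 ± 527 per kb) and Mfap4 (1420 ± 1286 per kb) led, Mfap2 was eighth in order (39.7 ± 39.8 per kb), and Fbln5 held 2.60% to 7.65%. Neighbours in the order overlapped between libraries at every step in NASH-fib, so the order there is not resolved. In CCl4-fib Mfap4, Mfap5 and Mfap2 did not overlap with each other, whereas Mfap2 overlapped with Fbln2, Eln with Fbn1 and Fbn1 with Fbln1. In HSCs, Fbln5 lay above Fbn1 and Fbn1 above Mfap5 in every library. Mfap5 overlapped with Eln and Eln with Fbln2, and Fbn2 had no read.

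**Figure D1:**
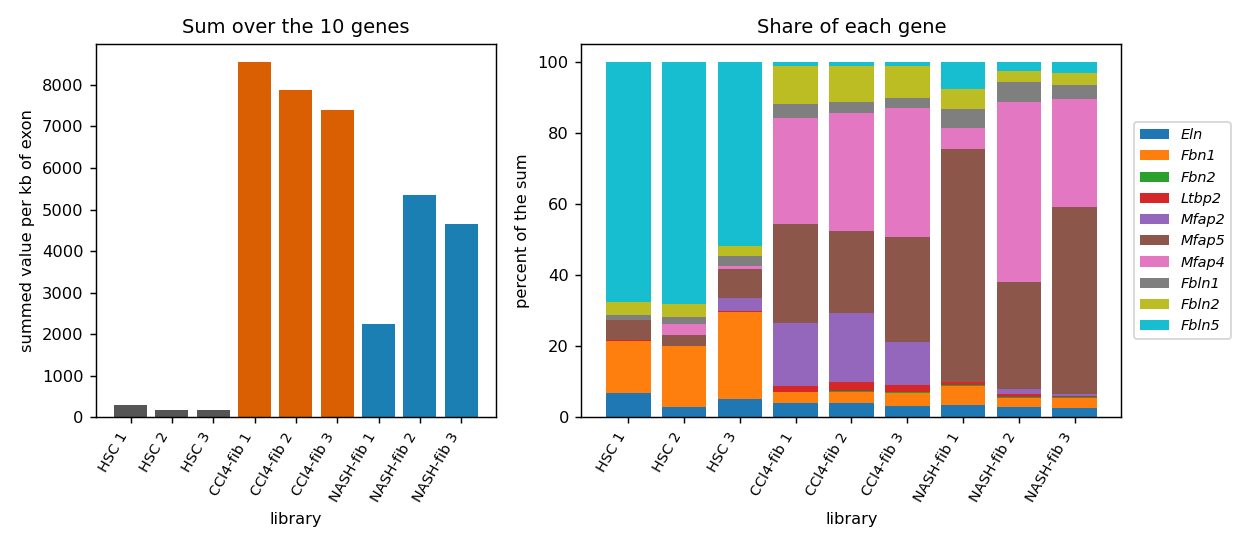
Left, the summed value per kb of exon of the 10 genes in each of the 9 libraries. Right, the percent of that sum held by each gene, as stacked bars in the same order of libraries. Fbln5 fills 51.8% to 68.1% of the HSC bars and 1.17% to 7.65% of the fibroblast bars, and Mfap2 takes 16.6% of the mean in CCl4-fib and 0.97% in NASH-fib.

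**Figure D2:**
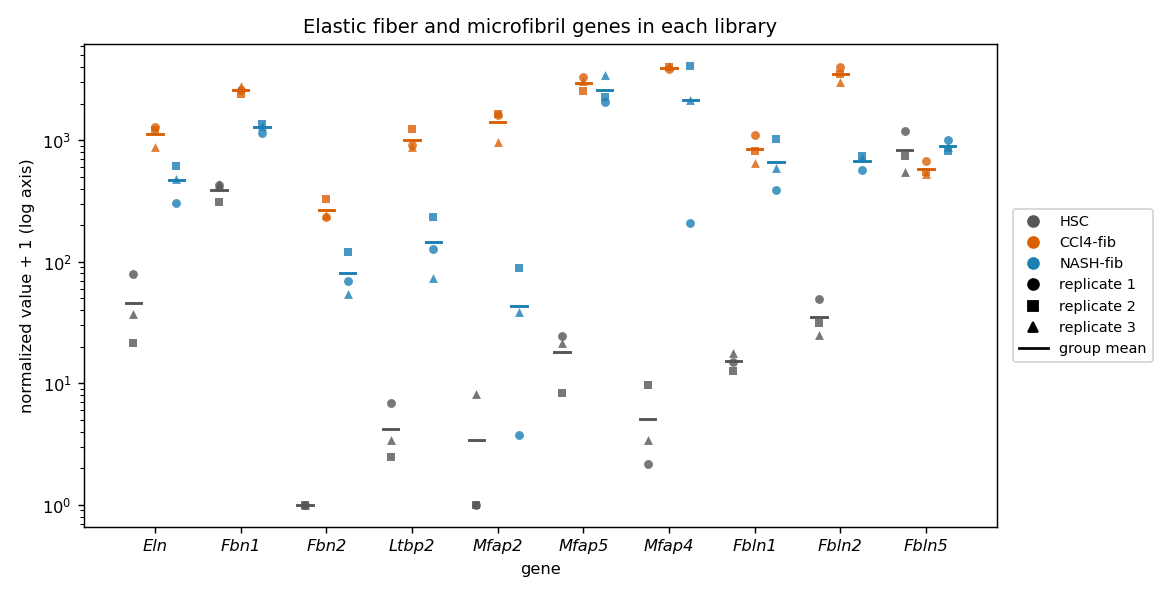
Normalised value plus 1 on a log axis for each of the 10 genes, with 1 point per library (circle, square and triangle for replicates 1, 2 and 3) and a line at the mean of 3 libraries of HSCs (grey), CCl4-fib (orange) and NASH-fib (blue). HSCs overlap with both fibroblast groups for Fbln5, and Mfap2 spans from 0 reads in HSCs to a value of 1642 in CCl4-fib.

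Against HSCs, 9 of the 10 genes were called higher in CCl4-fib and 0 lower, where 16.2% of the 13651 genes tested were called higher. Against the same HSCs, 8 of the 10 were called higher in NASH-fib and 0 lower, where 8.23% of all genes were called higher. To be called, a gene had to differ by 2-fold or more (1 on the log2 scale) and to stay under 0.05 in limma after Benjamini-Hochberg adjustment over all genes tested. The median log2 fold change of the 10 genes was 7.10 in CCl4-fib and 4.69 in NASH-fib, or 6.41 and 4.35 with Fbn2 set at its lower bound, beside 0.18 and -0.02 over all genes. All 10 passed the filter on low values, but several did so only through the fibroblast groups and thus had to differ, so these counts are descriptions. The libraries did not overlap with HSCs for those same 9 and 8 genes, where 27.8% and 12.7% of all genes lay wholly above HSCs, and 0 of the 10 lay wholly below, where 20.9% and 11.6% of all genes did. With 3 libraries a group, an exact permutation test of a single gene cannot go below a two-sided p of 0.1. In bulk RNA, a larger share of cells that express a gene and more RNA per cell cannot be told apart.

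Eln (NM_007925, mm10 chr5:134702595-134747323, minus strand, 37 exons) encodes tropoelastin, the core of the elastic fiber. Exon numbers here and below are those of GENCODE. Its value was 78.3, 20.4 and 35.9 in the HSC libraries, 1273, 1203 and 882 for CCl4-fib, and 303, 614 and 477 for NASH-fib. Every fibroblast library lay above every HSC library, and every CCl4-fib library above every NASH-fib library. Against HSCs the log2 fold change was 4.80 (SE 0.49) in CCl4-fib and 3.49 (SE 0.49) in NASH-fib, with limma adjusted p = 9.1e-05 and 0.00091. Between the fibroblast groups it was -1.31, with a 95% interval from -2.39 to -0.22, and did not pass after adjustment (limma adjusted p = 0.11). Eln shares 267 bases with the antisense gene Gm30003, and since reads of either strand were counted, the reads of such a pair cannot be told apart.

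Fbn1 (NM_007993, chr2:125300594-125506438, minus strand, 66 exons), which forms the backbone of the microfibril, was second to Fbln5 per kb in HSCs. Its value was 429, 309 and 434 across HSCs, 2607, 2375 and 2773 across CCl4-fib and 1154, 1356 and 1299 across NASH-fib. The 3 groups were separate and in the order HSC, NASH-fib, CCl4-fib, with little spread within each. Fbn1 rose by 2.74 (SE 0.29, limma adjusted p = 0.00011) in CCl4-fib and by 1.71 (SE 0.29, limma adjusted p = 0.0028) in NASH-fib on the log2 scale, the smallest called rise among the 10 genes in each comparison. NASH-fib was lower than CCl4-fib (log2 fold change -1.03, SE 0.29, limma adjusted p = 0.048), just past the threshold. This call was lost in 17 of 21 alternative settings, and when any 1 library other than HSC replicate 2 was left out. Fbn1 shares 2442 bases of its span with Gm9913 on the other strand.

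Fbn2 (NM_010181, chr18:58008623-58209926, minus strand, 65 exons) encodes the fibrillin known mainly from development. It had 0 reads in all 3 HSC libraries, a value of 233, 327 and 239 in CCl4-fib, and of 68.0, 119 and 53.1 in NASH-fib. Set against a floor of 3 reads per HSC library, CCl4-fib was at least 69.7-fold higher and NASH-fib at least 21.0-fold higher. NASH-fib lay below CCl4-fib in every library, with a log2 fold change of -1.79 (SE 0.49, limma adjusted p = 0.042). That call was lost in 13 of 21 alternative settings, among them leaving out any CCl4-fib library, HSC replicate 1, NASH-fib replicate 1 or NASH-fib replicate 3. Fbn2 remained the minor fibrillin, at 7.54% to 11.5% of the summed fibrillin value per kb in CCl4-fib and 3.71% to 7.67% in NASH-fib. The ratio of Eln to Fbn1 per kb was 0.17 to 0.47 in HSCs, 0.82 to 1.31 in CCl4-fib and 0.68 to 1.17 in NASH-fib, so it overlapped between the fibroblast groups.

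Ltbp2 (NM_013589, chr12:84783212-84876495, minus strand, 35 exons), whose product sits on fibrillin microfibrils and, unlike its relatives, does not bind latent TGFβ, was near the floor in HSCs. Its value was 5.84, 1.46 and 2.39 in HSCs, which is 5, 1 and 2 reads. CCl4-fib gave 909, 1224 and 882, and NASH-fib 126, 231 and 71.8. In CCl4-fib Ltbp2 rose by 8.01 (SE 0.54, limma adjusted p = 1.3e-05) and in NASH-fib by 5.07 (SE 0.54, limma adjusted p = 0.00017) on the log2 scale. With HSCs so near the floor the size of these rises depends on the setting, from 6.26 to 8.50 and from 3.41 to 5.71 over 21 alternatives, all of which called them. NASH-fib was lower than CCl4-fib in every library (log2 fold change -2.95, SE 0.54, limma adjusted p = 0.013). Ltbp2 shares 764 bases with the antisense gene D030025P21Rik.

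The microfibril-associated glycoproteins diverged. Mfap2 (NM_008546, chr4:141010637-141015984, plus strand, 9 exons) encodes MAGP-1, which binds fibrillin and tropoelastin. In HSCs its value was 0, 0 and 7.17, the last from 6 reads. CCl4-fib gave 1622, 1642 and 963, and NASH-fib 2.72, 87.3 and 37.4, the first from 2 reads. It was thus abundant in CCl4-fib only, and the NASH-fib and HSC ranges overlapped. The log2 fold change against HSCs was 9.41 (SE 1.13, limma adjusted p = 0.00022) in CCl4-fib, was called in all 22 alternative settings and ran from 6.85 to 10.42 over them, the latter without HSC replicate 3. In NASH-fib it was 3.53 (SE 1.13, 95% interval from 1.03 to 6.03) and was not called (limma adjusted p = 0.071), although 6 of 22 alternative settings called it, among them leaving out HSC replicate 3 (4.54) or NASH-fib replicate 1 (4.85). NASH-fib was lower than CCl4-fib (log2 fold change -5.88, SE 1.13, limma adjusted p = 0.015), the largest difference of the 10 genes between the fibroblast groups. Leaving out NASH-fib replicate 1 gave -4.56, and leaving out NASH-fib replicate 2 gave -6.84.

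Mfap5 (NM_015776, chr6:122513676-122529287, plus strand, 10 exons) encodes the related MAGP-2. Its value was 23.4, 7.28 and 20.3 in the HSC libraries, 3335, 2536 and 3039.6 in the CCl4-fib libraries and 2054, 2251 and 3416 in the NASH-fib libraries. The fibroblast groups overlapped, and both lay far above HSCs. Its log2 fold change against HSCs was 7.50 (SE 0.44, limma adjusted p = 7e-06) in CCl4-fib and 7.27 (SE 0.44, limma adjusted p = 1.1e-05) in NASH-fib. Between the fibroblast groups it was -0.23 with a 95% interval from -1.20 to 0.73 (limma adjusted p = 0.75), which leaves room for a change past 2-fold downwards. Of the value per kb that Mfap2 and Mfap5 held together, Mfap2 took 29.3% to 45.9% in CCl4-fib and 0.17% to 4.83% in NASH-fib.

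Mfap4 (NM_029568, chr11:61485444-61488704, plus strand, 6 exons), a fibrinogen-related glycoprotein that binds elastin and collagen, varied widely within NASH-fib. In HSCs its value was 1.17, 8.74 and 2.39, from 1 to 6 reads. CCl4-fib gave 3838, 3968 and 4041, and NASH-fib 205, 4076 and 2129. NASH-fib replicate 2 reached the CCl4-fib level while NASH-fib replicate 1 did not. Compared with HSCs, the log2 fold change was 9.89 (SE 0.94, limma adjusted p = 6.3e-05) in CCl4-fib and 8.19 (SE 0.94, limma adjusted p = 0.00027) in NASH-fib. The change in NASH-fib ran from 6.40 to 10.09 over 22 alternative settings, which all called it, and stood at 9.47 with NASH-fib replicate 1 left out, at 7.32 with NASH-fib replicate 2 left out and at 8.81 with HSC replicate 2 left out. The change in CCl4-fib was 10.51 without HSC replicate 2. Between the fibroblast groups it was -1.70, with a 95% interval from -3.78 to 0.38 (limma adjusted p = 0.26), moving to -0.42 when NASH-fib replicate 1 was left out and to -2.58 when it was NASH-fib replicate 2. The counting kept at most 3 reads per position, and Mfap4 and Mfap5 reached 3.21 and 3.01 reads per exonic base, the most of the 10 genes. Bgn, a gene outside the 10, reached 6.17, so the 10 genes did not stand at the highest level counted. Reads of either strand were counted, and whether the limit also held down Bgn was not tested. How far the limit held down the high values of Mfap4 and Mfap5 was not tested.

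The fibulins fell into different courses. Fbln1 (NM_010180, chr15:85206008-85286294, plus strand, 17 exons), a component of elastic fibers and basement membranes, had a value of 14.0, 11.7 and 16.7 for HSCs, 1091, 811 and 642 for CCl4-fib and 386, 1023 and 584 for NASH-fib. The fibroblast groups overlapped. The log2 fold change was 5.79 (SE 0.42, limma adjusted p = 1.8e-05) in CCl4-fib and 5.36 (SE 0.42, limma adjusted p = 3.7e-05) in NASH-fib, and between them -0.43 with a 95% interval from -1.37 to 0.50 (limma adjusted p = 0.52).

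Fbln2 (NM_007992, chr6:91212764-91272540, plus strand, 18 exons) encodes a protein that binds fibrillin and tropoelastin and is known from vessel walls and portal tracts. Its value was 47.9, 30.6 and 23.9 across HSCs, 4019, 3521 and 2999 across CCl4-fib and 571, 734 and 714 across NASH-fib. The 3 groups were separate. The log2 fold change was 6.69 (SE 0.34, limma adjusted p = 5.5e-06) in CCl4-fib and 4.31 (SE 0.34, limma adjusted p = 3.9e-05) in NASH-fib. NASH-fib was lower than CCl4-fib (log2 fold change -2.38, SE 0.34, limma adjusted p = 0.0078).

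Fbln5 (NM_011812, chr12:101746565-101819119, minus strand, 11 exons) was the member that was not called in any comparison. Its value was 1191, 734 and 550.0 in the HSC libraries, 669, 544 and 524 in the CCl4-fib libraries and 1010.0, 818 and 879 in the NASH-fib libraries. HSCs overlapped with both fibroblast groups, while every NASH-fib library lay above every CCl4-fib library. The log2 fold change against HSCs was -0.44 (95% interval from -1.21 to 0.32, limma adjusted p = 0.36) in CCl4-fib and 0.20 (95% interval from -0.57 to 0.96, limma adjusted p = 0.85) in NASH-fib, and NASH-fib against CCl4-fib gave 0.64 (95% interval from -0.12 to 1.41, limma adjusted p = 0.25). The upper bounds against HSCs lie below a 2-fold rise. The sign in NASH-fib against HSCs turned to -0.06 without HSC replicate 3.

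**Figure D3:**
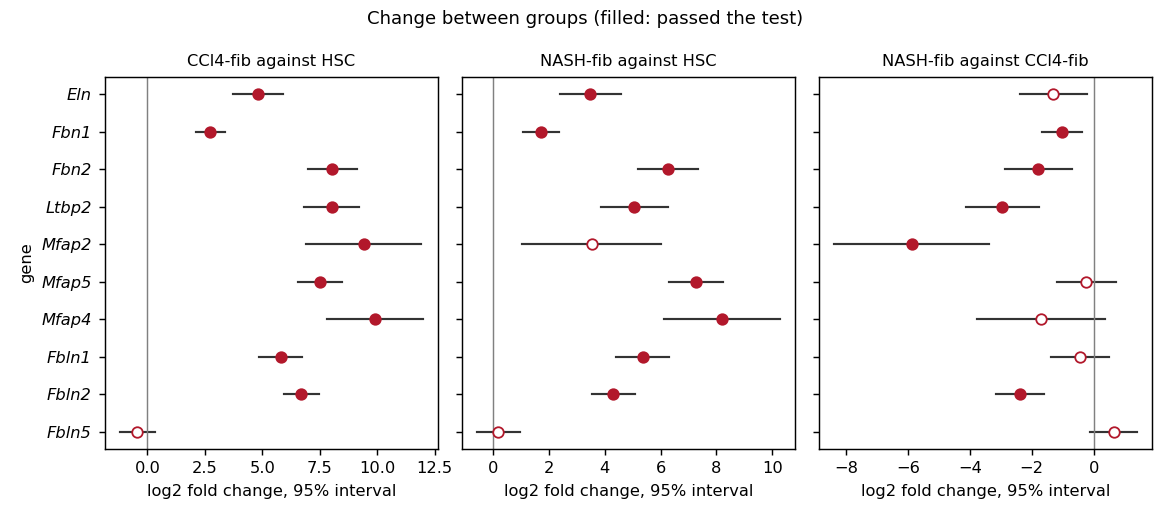
Log2 fold change of each gene with its 95% interval from limma in CCl4-fib against HSCs, NASH-fib against HSCs and NASH-fib against CCl4-fib (3 libraries a group). Filled points passed the test, the axes differ between panels, and the points of Fbn2, Mfap2, Ltbp2 and Mfap4 against HSCs depend on the pseudocount, since HSCs had 0 to 6 reads. Fbln5 is open in all 3 panels, and Mfap2 lies farthest from 0 in the comparison of the fibroblast groups.

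The direct comparison of the fibroblast groups asks where the NASH model differs from the CCl4 model. NASH-fib was lower for 5 of the 10 genes, Fbn1, Fbn2, Ltbp2, Mfap2 and Fbln2, and higher for 0, where 5.66% of all genes were called lower and 4.97% higher. The median log2 fold change of the 10 genes was -1.50, beside -0.11 over all genes. NASH-fib lay wholly below CCl4-fib for 6 genes, the 5 called and Eln, and wholly above for Fbln5, where 22.0% and 17.1% of all genes did so. Both groups were compared with the same HSCs above, so their rises are not independent of each other.

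How firmly these 5 calls held differed. Fbln2, Ltbp2 and Mfap2 were called under TMM scaling and in edgeR, where Fbn1 and Fbn2 were not, and the count was then 3. The count was also 3 without HSC replicate 2 and NASH-fib replicate 1, and it fell to 1, Fbln2, without CCl4-fib replicate 2. It was 2 without CCl4-fib replicate 1 (Fbln2 and Ltbp2) or without NASH-fib replicate 3 (Fbln2 and Mfap2). It was 3 (Fbln2, Ltbp2 and Mfap2) when the library left out was CCl4-fib replicate 3, HSC replicate 1 or NASH-fib replicate 1. Several of the genes are rich in GC, with 59.6% in Mfap2, 58.8% in Eln, 58.5% in Ltbp2 and 57.0% in Fbln2 against a median of 49.8% over the genes tested. The 3 CCl4-fib libraries read higher at GC-rich genes (r = 0.24 to 0.35 across genes). With a correction for GC content and length, chosen after seeing the data, the log2 fold change was -0.19 for Eln, -4.62 for Mfap2, -1.93 for Ltbp2, -1.42 for Fbln2 (limma adjusted p = 0.053, no longer called), -1.07 for Fbn1 and -1.64 for Fbn2.

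**Figure D4:**
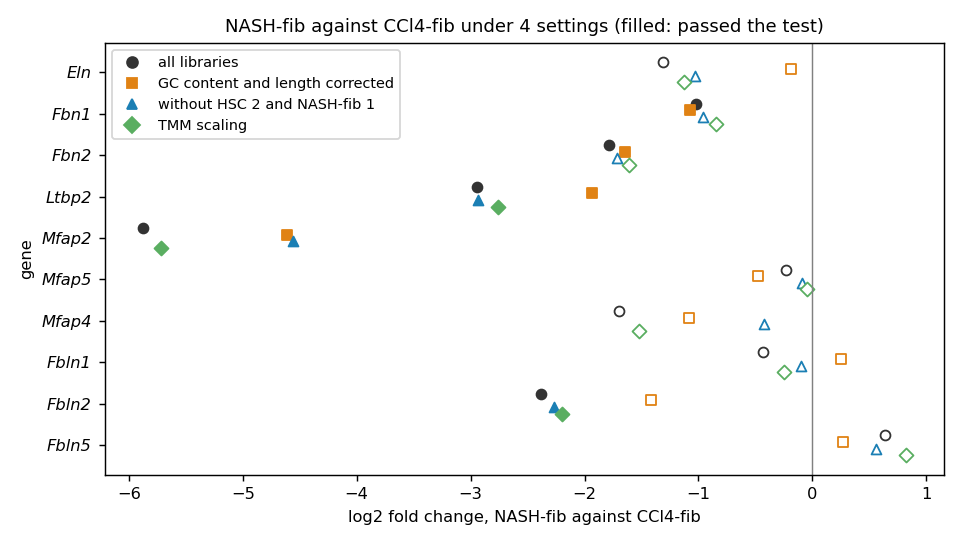
Log2 fold change of NASH-fib against CCl4-fib for each gene with all libraries (black circles), after a correction for GC content and length (orange squares), without HSC replicate 2 and NASH-fib replicate 1 (blue triangles) and under TMM scaling (green diamonds). Filled symbols passed the limma test. Mfap2 and Ltbp2 are filled in all 4 settings, Eln moves from -1.31 to -0.19 with the correction, and Fbln1 changes side of 0.

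Markers of other cells moved with the groups. Against HSCs, 16.2% of all genes were called higher in CCl4-fib and 8.23% in NASH-fib, and 11.7% and 4.30% lower. Against HSCs, portal fibroblast markers were called higher for 7 of 9 genes in both fibroblast groups, with a summed value of 968 to 2243 in HSCs (Pi16 and Clec3b at the floor), 9275 to 12633 in CCl4-fib and 9386 to 14390 in NASH-fib. Mesothelial markers were called higher for 8 of 8 genes in both, with a sum of 706 to 1018 in HSCs, 16354 to 22601 in CCl4-fib and 25551 to 32267 in NASH-fib. Gpm6a, the most abundant of the list in each group, gave 6053 to 7605 in CCl4-fib and 11014 to 21261 in NASH-fib. Wt1 (860 to 1649 and 379 to 466) and Upk3b (1196 to 3916 and 141 to 965) went the other way, so the sums do not stand for each gene. Vascular smooth muscle markers were called higher for 6 of 7 genes in CCl4-fib and 5 of 7 in NASH-fib, with a sum of 131 to 446 in HSCs (Cnn1, Lmod1 and Casq2 at the floor), 3297 to 14306 in CCl4-fib and 5027 to 21462 in NASH-fib. Cholangiocyte markers summed to 63.1 to 226 in HSCs (Epcam at the floor), 3479 to 4753 in CCl4-fib and 5971 to 11605 in NASH-fib, with 4 and 5 of 5 tested called higher. Spp1 held most of the cholangiocyte sum in NASH-fib, at 4847 to 10730, with 938 to 2421 in CCl4-fib. Krt19, the most abundant of the list in CCl4-fib, gave 771 to 2699 there and 53.0 to 469 in NASH-fib. Quiescent stellate cell markers were called lower for 8 of 10 genes in both, with Hhip at the floor in CCl4-fib. The part of these cells in the rise of the elastic fiber genes was not tested.

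Between the fibroblast groups, portal fibroblast, mesothelial and vascular smooth muscle markers had 0 genes called higher in NASH-fib, with 2 of 9, 1 of 8 and 1 of 7 called lower. Of all genes 4.97% were called higher and 5.66% lower in this comparison. Of the cholangiocyte markers, 1 of 5 tested was called higher in NASH-fib and 0 lower. Sinusoidal endothelial markers were called higher in NASH-fib for 7 of 8 genes (sum of 1096 to 3686 against 255 to 288), hepatocyte markers for 5 of 10 (9239 to 32457 against 2544 to 3982), macrophage markers for 3 of 8 (2959 to 6242 against 456 to 917) and neutrophil markers for 3 of 4 tested (597 to 5485 against 2.38 to 45.8, Ly6g at the floor in CCl4-fib). HSCs carried these too, at 6433 to 15411 for endothelial, 27641 to 54568 for hepatocyte and 4197 to 15396 for macrophage markers. Lymphocyte markers summed to 36.3 to 110.0 in HSCs, 5.10 to 12.7 in CCl4-fib (Cd3e, Cd3g, Ms4a1 and Nkg7 at the floor) and 69.5 to 273 in NASH-fib. Of the lymphocyte markers, 2 of 5 tested were called higher in NASH-fib than in CCl4-fib and 0 lower. The part of all these cells in the lower values of NASH-fib was not tested.

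Of the 8 activated fibroblast markers, 7 were called higher and 0 lower in CCl4-fib against HSCs, 6 higher and 1 lower in NASH-fib against HSCs, and 0 higher and 3 lower in NASH-fib against CCl4-fib. Over all genes the shares higher and lower in these comparisons were 16.2% and 11.7%, 8.23% and 4.30%, and 4.97% and 5.66%. Postn and Col3a1, named after their values were seen, did not follow the others throughout. Postn, the matrix protein periostin, gave -1.24 (limma adjusted p = 0.051) in CCl4-fib and was called lower in NASH-fib (-1.71, limma adjusted p = 0.022), and Col3a1 gave 0.99 (limma adjusted p = 0.13) in NASH-fib. Col1a1 had values of 452 to 968 in HSCs, 8485 to 11375 in CCl4-fib and 3738 to 4729 in NASH-fib, and was lower in NASH-fib than in CCl4-fib (log2 fold change -1.25, SE 0.35, limma adjusted p = 0.046). Col1a2, the gene whose promoter drives the reporter of the sort, gave -1.39 (SE 0.38, limma adjusted p = 0.045) in the same comparison. Acta2, smooth muscle actin, had values of 40.8 to 93.5 in HSCs, 5464 to 6985 in CCl4-fib and 5300.2 to 8983 in NASH-fib and gave 0.24 (95% interval from -0.60 to 1.08, limma adjusted p = 0.70). Col3a1 had values of 12180 to 15970 in CCl4-fib and 3404 to 6882 in NASH-fib. The lowest log2 difference among the 8 markers was -1.60. The log2 differences of Fbn1 and Eln were of the size of those of Col1a1 and Col1a2. Those of Fbn2 (-1.79) and Mfap4 (-1.70, not called) were close to the lowest of the markers. Mfap2, Ltbp2 and Fbln2 had larger ones, with no test of the difference between genes. With the correction for GC content and length, Eln gave -0.19 and Fbln2 -1.42, and the collagens were not followed under it.

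The genes that assemble and cross-link elastic fibers were taken as a list of 26, of which 24 were tested (not Emilin3 and Adamts17). Compared with HSCs, CCl4-fib was higher for 7 and lower for 3, with a median log2 fold change of 0.68, and NASH-fib also for 7 and 3, with a median of 0.08. Of all genes 16.2% were called higher in CCl4-fib and 8.23% in NASH-fib, and 11.7% and 4.30% lower. The 3 of 24 lower in CCl4-fib are near that share. Without the elastic fiber genes themselves, the list held calls in both directions. Lox, which oxidises lysines of tropoelastin and collagen for cross-linking, had a value of 0, 42.2 and 4.78 for HSCs, 600.0, 913 and 1089 for CCl4-fib and 605, 399 and 277 for NASH-fib. The rise of Lox was 7.06 (SE 1.05, limma adjusted p = 0.00079) in CCl4-fib and 6.01 (SE 1.05, limma adjusted p = 0.0033) in NASH-fib on the log2 scale, and the fibroblast groups overlapped. Lox and Timp1 are also in the list of activated fibroblast markers.

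Loxl1, the lysyl oxidase most tied to elastin, had a value of 49.1, 74.3 and 40.6 across HSCs, 981, 1482 and 1025 across CCl4-fib and 164, 197 and 117 across NASH-fib. All 3 groups were separate, and NASH-fib was lower than CCl4-fib (log2 fold change -2.87, SE 0.38, limma adjusted p = 0.0057). Vcan, a proteoglycan that binds fibrillin, rose by 5.79 in CCl4-fib and 4.15 in NASH-fib on the log2 scale, and Thsd4, which promotes fibrillin assembly, by 2.80 and 3.00. Emilin2 of the elastin interface proteins rose by 3.70 and 1.92. Fn1, the fibronectin on which microfibrils are laid down, rose by 2.47 in CCl4-fib, while NASH-fib at 1357 to 1575 stayed within the HSC range of 1156 to 1637. Ltbp3 was called higher in CCl4-fib by 1.34 on the log2 scale, and Ltbp1 (2.27) and Adamtsl3 (2.50) in NASH-fib. Those called lower in both were Adamtsl4 (-1.85 and -2.45), Hmcn1 (-1.58 and -2.11) and Loxl4 (-2.57 and -2.31).

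In NASH-fib against CCl4-fib the list gave 2 genes higher, Ltbp1 (1.69) and Adamtsl3 (2.28), and 4 lower, Loxl1 (-2.87), Emilin1 (-2.88), Emilin2 (-1.78) and Fn1 (-2.37), with a median of -0.74. Of all genes 4.97% were called higher and 5.66% lower, so 2 of 24 higher is near that share. The count of 6 fell to 2, Loxl1 and Fn1, when CCl4-fib replicate 2 or 3 or NASH-fib replicate 3 was left out, and to 3, those genes and Adamtsl3, when it was NASH-fib replicate 1. Efemp2, the fibulin-4 that recruits lysyl oxidase to tropoelastin, had a value of 286, 35.0 and 558 in the HSC libraries, 868, 1027 and 884 in the CCl4-fib libraries and 48.9, 568 and 231 in the NASH-fib libraries, and was not called in any comparison (log2 fold changes of 2.37, 0.06 and -2.30, limma adjusted p = 0.11, 0.99 and 0.16). Ltbp4, which also guides elastin assembly, gave 0.95, 0.14 and -0.81 and was not called (limma adjusted p = 0.34, 0.96 and 0.47).

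The list of 17 elastin-degrading enzymes, their inhibitors and parts of the elastin receptor complex had 15 tested genes (not Mmp9 and Elane). Compared with HSCs, CCl4-fib was higher for 7 and lower for 2, and NASH-fib higher for 4 and lower for 0. Of all genes 16.2% and 8.23% were called higher and 11.7% and 4.30% lower, so the 2 of 15 lower in CCl4-fib are near that share. Compared with CCl4-fib, NASH-fib was higher for 3 and lower for 2, beside 4.97% and 5.66% of all genes. The inhibitor Timp1 rose by 6.07 (SE 0.83, limma adjusted p = 0.00048) in CCl4-fib and 5.69 (SE 0.83, limma adjusted p = 0.0011) in NASH-fib on the log2 scale, and Timp2 by 1.55 and 1.67. Timp3 (1.36), the gelatinase Mmp2 (3.41), its activator Mmp14 (2.37), the collagenolytic and elastolytic cathepsin Ctsk (1.92) and Glb1 (3.43), whose splice form is the elastin-binding protein, were called higher in CCl4-fib. In NASH-fib the elastases Mmp12 (3.79) and Mmp7 (5.83) were called higher against HSCs. Mmp12 also gave 2.42 in CCl4-fib (limma adjusted p = 0.080), and 1.37 in NASH-fib against CCl4-fib (limma adjusted p = 0.36). Mmp2 gave 1.72 in NASH-fib (limma adjusted p = 0.051), and Mmp2 and Ctsk lay above HSCs in every NASH-fib library. A call in only 1 fibroblast group is thus not by itself a difference between them.

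Mmp7 had 0 reads in every HSC library, a value of 0.79, 0 and 0 in CCl4-fib and of 74.8, 45.4 and 51.1 in NASH-fib. Against a floor of 3 reads per library it was at least 14.9-fold higher in NASH-fib than in HSCs and at least 22.0-fold higher than in CCl4-fib. It was the largest difference of this list between the fibroblast groups (5.55, SE 0.67, limma adjusted p = 0.0048). Its fitted values depend on the pseudocount, since both other groups were at the floor. Mmp14 (-2.79) and Glb1 (-2.78) were lower in NASH-fib than in CCl4-fib. Ctss and Serpina1a were lower in CCl4-fib than in HSCs (-2.97 and -3.41) and higher in NASH-fib than in CCl4-fib (2.67 and 2.82). Ctss is known from macrophages. Serpina1a, which encodes the inhibitor of neutrophil elastase, is also in the hepatocyte marker list, whose sums include it and moved the same way. The part of these cells in the changes of Ctss and Serpina1a was not tested.

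**Figure D5:**
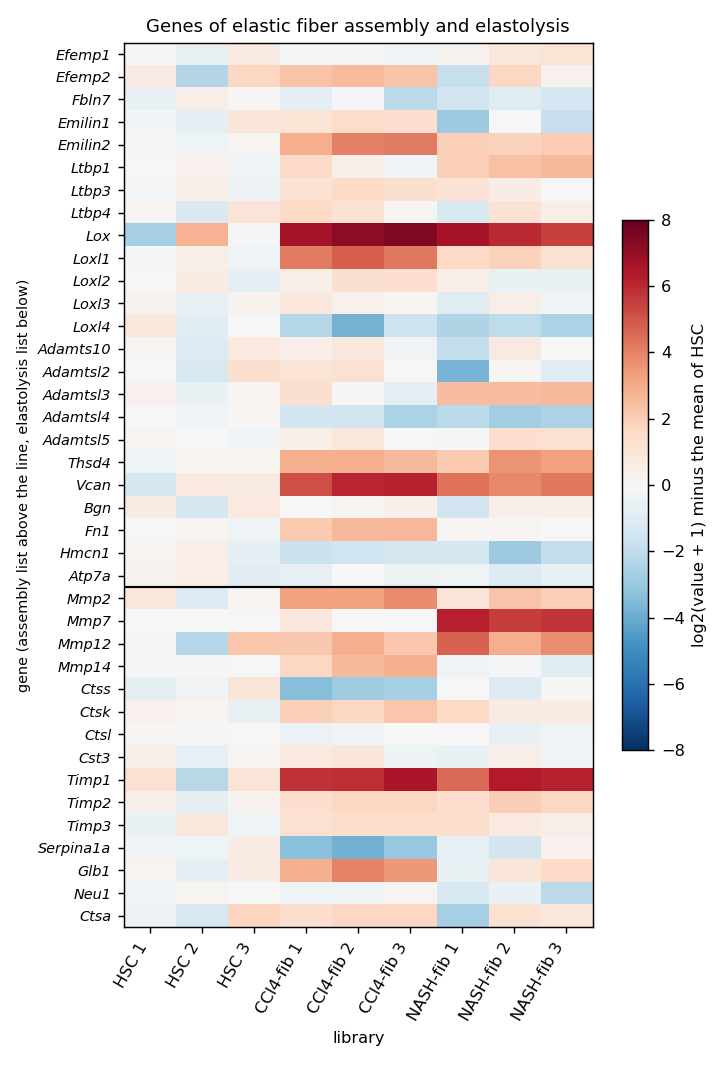
Log2(value + 1) in each library minus the mean of the 3 HSC libraries, for the 24 tested genes of elastic fiber assembly (above the line) and the 15 of elastolysis (below it), with red for higher and blue for lower. Lox, Vcan and Timp1 are red in both fibroblast groups, Loxl1 and Emilin2 are deeper red in CCl4-fib than in NASH-fib, Fn1 and Mmp14 are red in CCl4-fib and near white to pale blue in NASH-fib, and Mmp7 is deep red in NASH-fib and near white in the other groups.

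The genes whose log2(value + 1) followed a member most closely over the 9 libraries were sought among 7287 genes with a mean value of at least 100. The 9 points fall into 3 groups, so the coefficient mainly tells which gene shares the order of the groups, and it is given without a test. The pair nearest to each member was Prr15l and Dmkn for Eln (Pearson r = 0.989 and 0.987), Dmkn and Col6a5 for Fbn1 (0.996 and 0.993), Col12a1 and Sulf2 for Fbn2 (0.994 and 0.991), and Dmkn and Fbln2 for Ltbp2 (0.991 and 0.990). For Mfap2 they were Serpinf1 and Meis1 (r = 0.994 and 0.990), for Mfap4 Lrrc17 and Serpina3n (0.994 and 0.994), and for Mfap5 Acta2 and Upk1b (0.996 and 0.994). For Fbln1 they were Nr4a1 and Cilp (r = 0.998 and 0.997), and for Fbln2 Slit3 and Ltbp2 (0.996 and 0.990). Fbln2 and Ltbp2, a pair of members, were thus among each other's nearest genes. Fbln5 was followed by Ggps1 and Gpatch8 (r = 0.966 and 0.953), and no other member was near it.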

How the data were processed

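SMARTer-amplified RNA was sequenced as single-end reads, aligned to mm10 with STAR (its version is not given in the sources used here) and counted with HOMER. Reads of either strand on exons were counted, at most 3 per position, with 1 entry per gene. The signal values deposited by the authors are these counts times 1 factor per library, set over 10 libraries of which 9 are columns here. All values were whole reads within 0.1, which gave the depth of each library. The 10 members and all lists were chosen with earlier results of these data known. The design named edgeR for counts and limma for other units, so limma 3.58.1 was fitted to log2(value + 1) of 13651 genes passing filterByExpr (minimum count 10 on recovered reads), with 1 fit over 9 libraries, a prior spread following the mean and Benjamini-Hochberg adjustment. Fold changes are on that scale. The fit was tested on simulated data. Alternatives were edgeR 4.0.16 and DESeq2 1.42.0 on recovered reads, other scalings, pseudocounts, filters and blocks, and each library left out. A correction for GC content and length, and leaving out HSC replicate 2 with NASH-fib replicate 1, were added after seeing the data. Named genes were the members, called genes of the lists, Lox, Loxl1, Efemp2, Ltbp4, Col1a1, Col1a2, Acta2 and the 2 genes nearest each member. No pair of libraries was a copy. The motifs and the promoters shown were chosen afterwards.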

Additional observations from a re-analysis of the deposited data

Results flagged for a closer look

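The genes below were picked out because their change against HSCs differed between the models, by limma's test of NASH-fib against CCl4-fib. Among the elastic fiber genes the log2 difference was -5.88 for Mfap2, -2.95 for Ltbp2, -2.38 for Fbln2, -1.79 for Fbn2 and -1.03 for Fbn1. Among the assembly genes it was -2.88 for Emilin1, -2.87 for Loxl1, -2.37 for Fn1, -1.78 for Emilin2, 1.69 for Ltbp1 and 2.28 for Adamtsl3. Among the elastolysis genes it was -2.79 for Mmp14, -2.78 for Glb1, 2.67 for Ctss, 2.82 for Serpina1a and 5.55 for Mmp7. Groups of 3 libraries were too small for a test of single outlying libraries. NASH-fib replicate 1 had values of 205 for Mfap4 and 2.72 for Mfap2, against 2129 or more and 37.4 or more in the other libraries of its group.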

How the results depend on the processing

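Of the 10 genes, 9 were called in CCl4-fib against HSCs under every alternative except the filter on an average RPKM over 100, which left 3, and leaving out each library in turn gave 9 to 9. That filter, named in the methods of the study, kept only Mfap2, Mfap4 and Mfap5 of the 10 genes, so all 3 tested were called. In NASH-fib against HSCs the count of 8 was 2 of the 3 tested under that filter, and 8 to 9 without 1 library. In that comparison Mfap2 was called in 6 of 22 alternatives, and Fbn1 was lost in 1 of 21. In NASH-fib against CCl4-fib the count of 5 was 3 under TMM scaling, edgeR, no filter on low values, the label prefix block, the replicate block and without HSC replicate 2 and NASH-fib replicate 1. It was 1 of the 3 tested under the RPKM filter, and 1 to 5 without 1 library. The assembly list gave 0, 0 and 0 under the RPKM filter instead of 10, 10 and 6, and 6 and 3 against HSCs under the label prefix block in CCl4-fib and NASH-fib. Without 1 library it gave 7 to 11, 7 to 10 and 2 to 6. The RPKM filter leaves 1080 genes to test, and for the other settings the cause was not tested. Over the alternatives the Fbn1 and Fbn2 calls between the fibroblast groups were lost most often, with adjusted p from 0.015 to 0.14 and from 0.0076 to 0.18 by the tool of each setting. The sign of Fbln5 in NASH-fib against HSCs ran from -0.0573 (without HSC replicate 3) to 0.4995 without 1 library and turned to -0.0833 with the GC and length correction, which also turned Fbln1 in NASH-fib against CCl4-fib to 0.2554. Fbn1 in NASH-fib against HSCs was lost with the label prefix block (limma adjusted p = 0.077).

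TMM scaling moved the median log2 fold change of all genes in NASH-fib against CCl4-fib from -0.11 to 0.07 and edgeR to 0.14, and the share of calls that were higher was 46.7% in limma, 58.8% in edgeR and 56.7% in DESeq2. Replicate numbers did not pair the samples, since same-numbered libraries correlated at -0.47 to 0.51. With the replicate block the counts of the assembly list were 9, 9 and 4. The shallowest library held 3071070 reads, and the floor of 3 reads stood at a value of 4.37 there. Values near or below the floor limit Fbn2, Mfap2, Mfap4 and Ltbp2 in HSCs. Floors cover counting error only, and the 95% intervals of fold changes come from the spread between libraries.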
